A study of Oryza sativa with 4 samples.

Results

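WRKY proteins are plant transcription factors named after a short amino acid stretch in their DNA-binding domain, which also holds a zinc finger. They bind a promoter sequence called the W-box and are best known for switching genes on or off in defence against pathogens and in responses to drought, wounding and nutrient shortage. In Arabidopsis roots, WRKY75 is known for its part in the response to phosphate starvation and in the growth of lateral roots and root hairs, the tubular outgrowths of single epidermal cells that take up water and nutrients.

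The 40 gene identifiers described here were given as members of the rice WRKY family and were found on the array by the gene identifier with which each probe name begins. Of these, 37 had a probe, among 29859 genes with a probe in all, and the 37 were read by 67 probes. The other 3, Os01g0820400, Os01g0586800 and Os05g0567200, were left out. Chromosome 1 carries 16 of the 40 identifiers and chromosome 5 carries 8. Only 1 member, Os01g0730700, is described as WRKY in the sources used here, as WRKY transcription factor 49 in the study's annotation. Whether the numbers in such descriptions are the rice names of the genes could not be checked. The family label of the other members could not be checked, so they are called by their identifiers and no role is given for any of them.

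Root hairs were brushed from frozen seminal roots of untreated rice seedlings grown on MSO medium, at 3 days after germination, and their RNA was hybridised in a single colour to 4 arrays. The labels give the cultivar of 1 array as Lon-gin and that of replicates 1, 2 and 3 as Don-gin, while the study's methods describe biological replicates of a single cultivar, Dongjin. All 4 were therefore kept as 1 group, with the odd one named for its label. The Lon-gin-labelled array and replicate 3 lay on slide 2, and replicates 1 and 2 lay on slide 1, each slide being scanned on its own. No other tissue was analysed here, so nothing below compares root hairs with another organ.

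For Os01g0730700, the study also listed promoter stretches matched to the root hair element, a promoter motif known from root hair genes in Arabidopsis. They are shown because this is the only member on the study's list of root hair-preferential genes, next to those of Os03g0321700, a WRKY gene of that list outside the 40. Each is written 5′ to 3′ with the strand given for it, and capitals mark the letters CACG wherever they occur.
Os01g0730700, plus strand: ttcatgacaaCACGat
Os01g0730700, minus strand: tctgtggctgcaggta
Os03g0321700, minus strand: acaatgaactaCACGat
Os03g0321700, minus strand: gttatgtgcatCACGat
Of these 4 stretches, 3 hold CACG, and the minus-strand stretch of Os01g0730700 does not. A match of this kind is a description and not a site, and the share of all rice promoters with such a match was not analysed here.

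The arrays differed in brightness before any member was considered. The 75th percentile of the log2 signal was 11.8 on the Lon-gin-labelled array and 11.49 on replicate 3, against 10.59 and 10.73 on replicates 1 and 2. The share of probes well above background, a flag set by the scanner software, was 88.6% and 85.4% on slide 2, against 71.5% and 74.1% on slide 1. Levels below are log2 signals scaled so that the arrays share their 75th percentile, and a gene's level is the mean of its probes. The number of arrays limits the precision. Markers of root hairs and of other root cells were not matched to probes, so the purity of the tissue was not checked on these arrays. The study itself examined its samples under a microscope and by RT-PCR. It reported OsEXPA17, a root hair marker, as strong in them and OsBOR1, a gene of other root tissues, as weak.

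Detection of the members was close to that of the array as a whole. A gene was counted on an array if at least 1 of its probes was well above background there, and 23 of the 37 members passed on all 4 arrays, a share of 62.2% against 67.7% of all genes. Another 11 passed on 1 to 3 arrays and 3 passed on none. The share of members detected was 91.9% on the Lon-gin-labelled array and 89.2% on replicate 3, against 62.2% on replicate 1 and 73% on replicate 2. Over all genes these shares were 87.5% and 84.4% on slide 2, against 69.4% and 72.2% on slide 1, so the brighter slide detected more of both. In tissue of this kind, fewer cells that express a gene and less of its RNA per cell cannot be told apart.

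**Figure D1:**
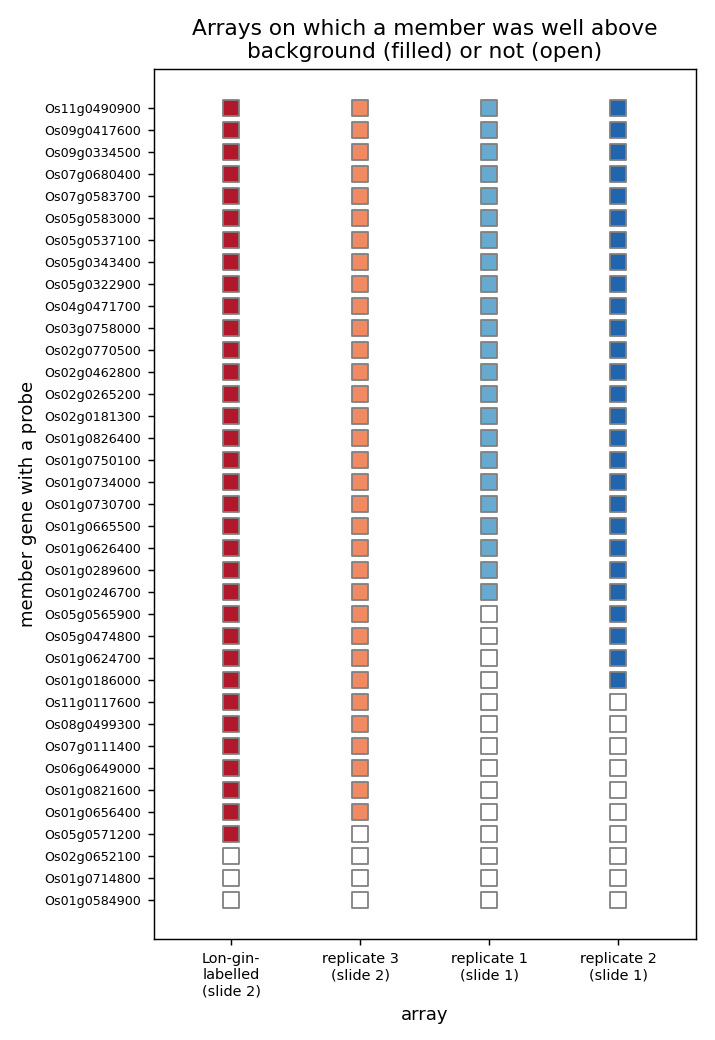
Detection of the 37 members (rows) on the 4 arrays (columns, slide 2 left of slide 1); a filled square means that at least 1 probe of the gene was well above background. The 11 members detected on only some arrays all have their filled squares on slide 2, and 4 of them also on replicate 2.

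Every member that was missed on some arrays only was missed on replicate 1. Os01g0186000, Os01g0624700, Os05g0565900 and Os05g0474800 were well above background on the 3 other arrays. Os05g0474800 had the widest range of these, with 6.03 on the Lon-gin-labelled array and 3.74 on replicate 3, against 2.11 and 4.34 on replicates 1 and 2. Os01g0186000 gave 6.15 and 5.25 on slide 2, against 2.53 and 4.48 on slide 1, and its 2 probes ordered the arrays alike. Os05g0565900 moved less, with 4.81 and 4.17 on slide 2, against 3.55 and 4.60 on slide 1, and its slides overlapped.

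A further 6 members were well above background on both arrays of slide 2 and on neither array of slide 1. Os07g0111400 gave the highest bound among them, with 5.66 on the Lon-gin-labelled array and 4.51 on replicate 3, against 2.47 and 4.30 on slide 1. By this bound the mean of slide 2 was 2.57-fold higher, while replicate 3 lay close to replicate 2. Such a bound sets the mean of the brighter arrays against a mean over the dim arrays. Each dim array enters with the lowest signal that counted as well above background there, or the probe's own signal where that was higher. It compares means, so single arrays can lie closer together. Nor is it a strict limit, because an undetected probe can read above that lowest signal. Probe 2 of Os01g0624700, for one, was not well above background on replicate 1 at 4.55. For both probes of Os08g0499300 the bound was 1.38-fold, and for Os01g0821600 it was 1.05-fold. Os01g0656400, Os06g0649000 and Os11g0117600 gave no bound above 1. Their levels were 3.25 and 3.58 on slide 2, against 3.57 and 3.76 on slide 1 for Os01g0656400. They were 3.06 and 3.00 on slide 2, against 2.73 and 2.05 on slide 1 for Os11g0117600. For Os06g0649000 they were 2.30 and 2.58 on slide 2, against 2.18 and 1.89 on slide 1. The lowest level that counted as well above background was 1.41 on the Lon-gin-labelled array and 1.82 on replicate 3, against 3.15 and 3.00 on replicates 1 and 2, so these members lay between the limits of the slides or close to them.

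Os05g0571200 was well above background on the Lon-gin-labelled array alone. It gave 5.29 there, against 0.96, 2.27 and 3.15 on replicates 3, 1 and 2. By the same kind of bound, this is 6-fold above the mean of those arrays, though not above each of them. The remaining 3 members, Os01g0714800, Os02g0652100 and Os01g0584900, were not well above background on any array. All of their values lay between 0.13 and 2.11, and all were lower on slide 2, where Os01g0714800 gave 0.13 and 0.22, against 1.80 and 1.59 on slide 1. The 4242 probes of the array that were never well above background shifted the same way, with a median of -1.32 for slide 2 minus slide 1, and scaling takes more off the brighter arrays. No difference is read from such probes.

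Among the 23 members detected on all arrays, a few were steady from array to array. Os02g0265200 had the smallest spread, with 8.26 and 8.20 on slide 2, against 8.08 and 8.36 on slide 1 (8.23 ± 0.12, SD, n = 4). Os01g0730700 gave 12.13 on the Lon-gin-labelled array and 12.39 on replicate 3, against 11.90 and 12.50 on replicates 1 and 2 (12.23 ± 0.27, SD, n = 4). The slides overlapped for both genes. Next in order of spread came Os01g0246700 (10.76 ± 0.36), Os07g0583700 (11.49 ± 0.38) and Os05g0343400 (11.24 ± 0.44), each as mean ± SD over the 4 arrays. For Os07g0583700 both arrays of slide 2 lay below both of slide 1. For Os01g0246700 this mean joins unlike probes. Its probe 2 gave 10.14 and 10.51 on slide 2, against 9.90 and 10.60 on slide 1. Its probe 1 gave 11.85 and 11.68 on slide 2, against 10.70 and 10.72 on slide 1, a difference of 1.05 ± 0.25 (SE, adjusted p = 0.121 in limma). Os05g0343400 gave 11.14 and 11.30 on slide 2, against 10.72 and 11.79 on slide 1. Replicates 1 and 2 thus held its lowest and highest values, which lay 2.11-fold apart. Os01g0626400 was similar in spread (11.28 ± 0.53), with 11.73 and 10.83 on slide 2, against 10.82 and 11.74 on slide 1. All but the first of these 6 members had a mean level above 10.

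Most other members varied widely between arrays. The SD over the 4 arrays ran between 0.12 and 1.37, with a median of 0.69 over the 23 members and 0.38 over all 20222 genes detected on all arrays. The arrays lay more than 2-fold apart for 18 of the 23 members, against 39.5% of all such genes, and more than 4-fold apart for 7, against 12% of all such genes. Gene levels can include a probe that was not well above background on every array. Spread grew towards low levels in the data as a whole, and many members were dim. Among genes with a mean level below 6, the median SD was 0.76 for 9 members and 0.49 for all genes. At levels of 6 to 8 it was 1.13 for 3 members and 0.51 for all, and at 8 to 10 it was 0.79 for 6 members and 0.38 for all. At levels of 10 or above it was 0.38 for 5 members and 0.32 for all. After a normexp background correction with quantile normalization, no member was more than 4-fold apart, 6 were more than 2-fold apart, against 19.2% of all genes, and the median SD was 0.31. The 4-fold share and the median SD of all genes under that setting are not given here. It changes the signal read, the background correction and the scaling together and adds an offset of 50, and these parts were not tested separately. Dim levels rose under it, as for Os05g0583000, which read 7.08 in place of 2.79.

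**Figure D2:**
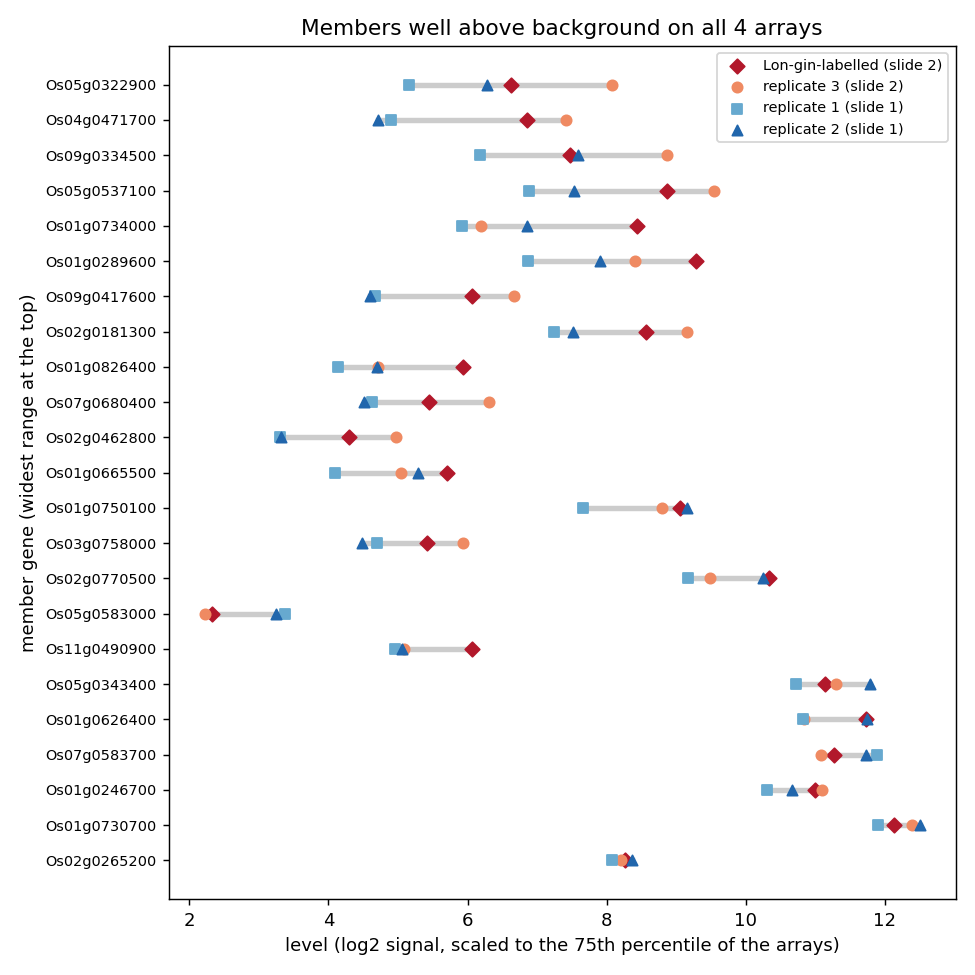
Level of each of the 23 members detected on all 4 arrays (rows, widest range at the top); the horizontal axis is log2 signal scaled to the 75th percentile, and each symbol is 1 array, with slide 2 in red and slide 1 in blue. Levels compare arrays within a row and not genes with each other; the light blue squares of replicate 1 are leftmost in 17 rows.

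The 7 members with the widest ranges fell into different patterns. Os05g0322900 peaked on replicate 3, with 6.63 on the Lon-gin-labelled array and 8.07 on replicate 3, against 5.16 and 6.28 on replicates 1 and 2. Its 4 probes all put replicate 3 highest, and the Lon-gin-labelled array minus replicate 3 was between -1.64 and -1.08. Os09g0334500 did likewise, with 7.47 and 8.86 on slide 2, against 6.18 and 7.59 on slide 1. For this gene the Lon-gin-labelled array lay below replicate 2, so the slides overlapped.

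Os05g0537100 and Os04g0471700 separated the slides more cleanly. The first gave 8.86 on the Lon-gin-labelled array and 9.54 on replicate 3, against 6.89 and 7.53 on replicates 1 and 2. The second gave 6.85 and 7.42 on slide 2, against 4.90 and 4.71 on slide 1. Os09g0417600 followed with 6.06 and 6.67 on slide 2, against 4.67 and 4.60 on slide 1. In each of these genes replicate 3 was the highest array and both arrays of slide 1 lay below slide 2. The levels of Os04g0471700 and Os09g0417600 include probes that were not well above background on slide 1. Their probes detected on all arrays had log2 ranges of 1.64 for the first gene, and 1.57 and 1.97 for the second. These are all less than 4-fold.

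Os01g0734000 and Os01g0289600 peaked on the Lon-gin-labelled array instead. Os01g0734000 gave 8.43 there, against 6.20, 5.92 and 6.86 on replicates 3, 1 and 2. Os01g0289600 gave 9.29 there, against 8.41, 6.87 and 7.91 on the same replicates. Replicate 3 was thus close to slide 1 for the first gene and above it for the second. Os02g0770500 was also highest on that array, over a smaller range, with 10.33 and 9.49 on slide 2, against 9.17 and 10.24 on slide 1, and its slides overlapped.

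Counted over the 23 members, 10 were highest on replicate 3, against 24.7% of all genes detected on all arrays, and 6 were highest on the Lon-gin-labelled array, against 25.8% of all. Replicate 1 was lowest for 17 of the 23, against 28.8% of all. These counts were chosen after the values had been seen. Replicate 1 was also the dimmest array of the series. Under the other 4 scalings, 12 to 19 members were lowest on replicate 1, against 20.7% to 55.3% of all genes, and 9 to 13 were highest on replicate 3, against 22.6% to 50.8%. On the Lon-gin-labelled array 5 to 14 were highest, against 16.8% to 73.9%.

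Slide 2 read higher than slide 1 for most members. For 12 of the 23 members, the lower array of slide 2 still exceeded the higher array of slide 1, against 26% of all genes detected on all arrays. The opposite order held for 2, against 27.8% of all, and the slides overlapped for 9. Slide and scan are technical units and not a condition of the study. The Lon-gin label occurs on slide 2 only, so label and slide cannot be fully told apart. With quantile normalization the counts were 8 and 3 members, against 18% and 38% of all genes. With normexp they were 6 and 3, against 20.3% and 34.1%, and without any scaling 21 and 0, against 85.3% and 0.519%. With the authors' values they were 16 and 1, against 64.7% and 5.01%.

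In limma, a probe was tested if either slide had it well above background on its 2 arrays, which kept 35920 probes, 60 of the members' 67 probes and 33 of their 37 genes. Of the 60, 1 member probe passed an adjusted p of 0.05, against 3.15% of all probes (1130, of which 1089 were higher on slide 2). It was probe 1 of Os04g0471700 (probes of a gene are numbered by the order of their names), with 6.40 on the Lon-gin-labelled array and 6.96 on replicate 3, against 3.56 and 2.53 on replicates 1 and 2, where it was not well above background. The fitted difference was 3.63 ± 0.46 (SE, adjusted p = 0.0408), and the bound, which is not a strict limit, was 10.6-fold. This probe entered the test through slide 2 only, the slide on which it was high. Probe 2 of the same gene, detected on all arrays, gave 7.30 and 7.88 on slide 2, against 6.24 and 6.88 on slide 1, a difference of 1.03 ± 0.38 (SE) with an adjusted p of 0.236. No member gene was called with quantile normalization, with normexp, or without replicate 1 or replicate 2, while 9 were called without replicate 3 (4621 of all 37696 probes), 8 without the Lon-gin-labelled array (3036 of 36362) and 13 without scaling (9563 of 35920). With the authors' values 3 were called (3140 of 35920), Os04g0471700 not among them. These counts are of member genes with any probe called, while those in brackets are of probes. The 2 kinds of count are therefore not shares of the same unit. The fit without replicate 3 sets the Lon-gin-labelled array alone against slide 1. Without replicate 1, no probe of any gene was called by limma (4358 had an unadjusted p under 0.05), and without replicate 2 likewise (6200).

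The median difference over the 60 member probes was 0.98, against 0.09 over all probes tested, and 51 of the 60 were above 0. Of the 60, 22 had an unadjusted p under 0.05 (36.7%, against 20.7% of all probes). The median member probe had a level of 6.27 and the median probe tested 8.96. Among the probes tested, those of low level read higher on slide 2, but a dim probe could pass the filter through slide 2 alone. The 4242 probes never well above background went the other way, with a median of -1.32. At levels of 4 to 6 the median difference was 1.31 for 17 member probes and 0.62 for all, and at 6 to 8 it was 1.05 for 14 member probes and 0.32 for all. At 10 or above it was 0.08 for 9 member probes and -0.16 for all, and below 4 it was 0.86 for 11 and 1.17 for all. With quantile normalization the medians were 0.37 for members and -0.12 for all, with normexp 0.18 and -0.03, with the authors' values 0.57 and 0.48, and without scaling 1.97 and 1.08. A member detected on slide 2 only could enter this median by being higher there, and over all 67 member probes with no filter the median was 0.86, against 0.01 over all. The part of level in the members' difference was not tested.

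**Figure D3:**
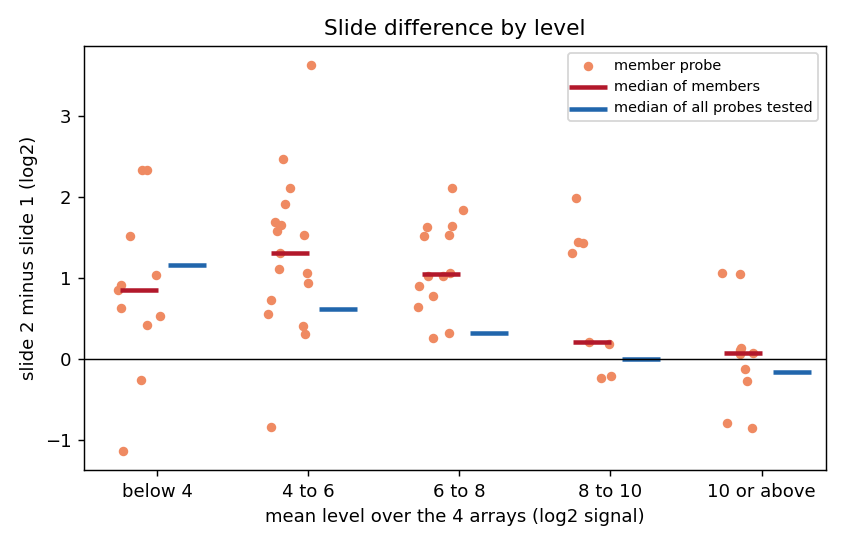
Slide 2 minus slide 1 (log2, vertical axis) for the 60 member probes tested (points), grouped by mean level over the 4 arrays (horizontal axis), with the median of the members (red bar) and of all probes tested (blue bar) in each group. The blue bars descend with level, and the red bars stand above them in each group except the lowest.

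After Os04g0471700, the member probes nearest to the threshold were probe 1 of Os02g0462800 and probe 4 of Os09g0417600, both not well above background on slide 1. The first gave 3.78 and 4.59 on slide 2, against 1.78 and 1.90 on slide 1 (difference 2.34 ± 0.37, SE, adjusted p = 0.0559), a bound of 2.16-fold. The second gave 4.70 and 5.38 on slide 2, against 2.99 and 2.42 on slide 1 (difference 2.34 ± 0.39, SE, adjusted p = 0.0602), a bound of 3.91-fold. Of the probes detected on all arrays, that of Os05g0537100 came closest, with a difference of 1.99 ± 0.40 (SE, adjusted p = 0.085). Os02g0181300 followed with 1.44 ± 0.31 on probe 1 and 1.52 ± 0.36 on probe 2 (SE, adjusted p = 0.0967 and 0.116). Its levels were 8.56 on the Lon-gin-labelled array and 9.16 on replicate 3, against 7.24 and 7.52 on replicates 1 and 2. None of these passed the threshold.

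Smaller differences in the same direction stood in Os07g0680400, with 5.45 and 6.31 on slide 2, against 4.62 and 4.51 on slide 1. Os03g0758000 did likewise, with 5.41 and 5.94 on slide 2, against 4.70 and 4.48 on slide 1. Its level joins unlike probes. Probe 1, detected on all arrays, differed by 0.65 ± 0.35 (SE, adjusted p = 0.36 in limma). Probe 2, not well above background on slide 1, differed by 1.52 ± 0.29 (SE, adjusted p = 0.0772). Os07g0583700 and Os05g0583000 lay the other way. Os07g0583700 gave 11.27 and 11.08 on slide 2, against 11.89 and 11.73 on slide 1, and all 3 of its probes had differences below 0, between -0.27 and -0.85. For Os05g0583000 the probe detected on all arrays gave 3.86 and 4.14 on slide 2, against 4.90 and 4.78 on slide 1 (difference -0.84 ± 0.27, SE, adjusted p = 0.191). These 2 members were the only ones detected on all arrays with both arrays of slide 2 below both of slide 1, and with the main scaling neither was called.

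**Figure D4:**
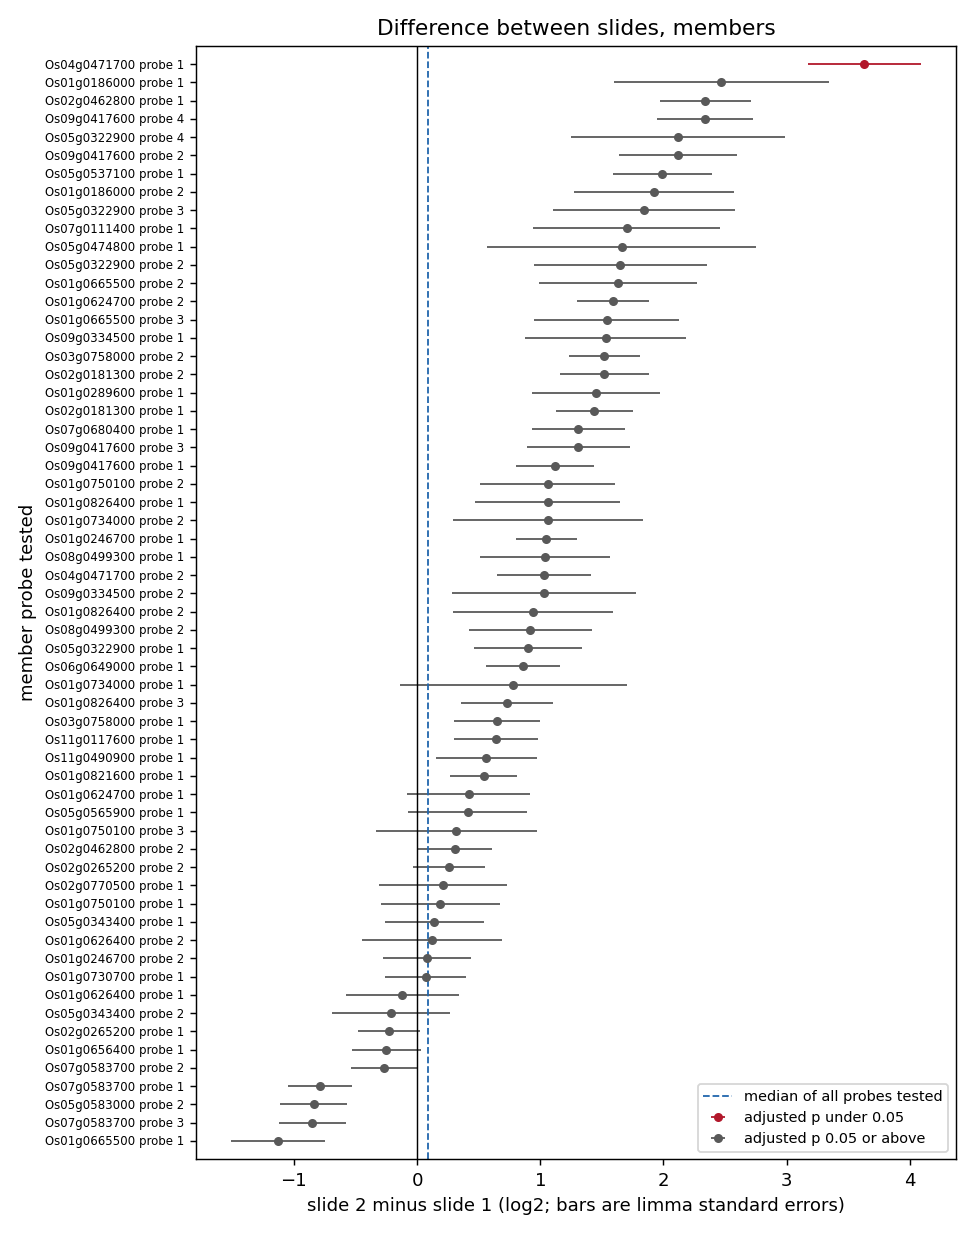
Fitted difference of slide 2 minus slide 1 (log2, horizontal axis) for the 60 member probes tested (rows, largest at the top), with bars of 1 limma standard error; the dashed line is the median of all probes tested, 0.09. Only the top probe, of Os04g0471700, has an adjusted p under 0.05, and 51 of the 60 points lie right of 0.

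The Lon-gin-labelled array was set against the 3 Don-gin arrays because its label differs. A single array has no spread of its own, so the fit takes its variance from the other 3, and the label, the slide and the sample cannot be told apart. No member probe of 61 passed an adjusted p of 0.05 in limma, against 0.00265% of all 37685 probes tested (1 probe). Unadjusted, 6 member probes of 4 genes had a p under 0.05 (9.84%, against 8.43% of all probes). The smallest adjusted p of a member was 0.324, for probe 2 of Os01g0734000, which gave 8.07 on the Lon-gin-labelled array, against 6.02, 5.61 and 6.35 on replicates 3, 1 and 2. The difference was 2.08 ± 0.49 (SE). Probe 1 of that gene gave 8.80, against 6.38, 6.23 and 7.38 on the same replicates, a difference of 2.14 ± 0.61 (SE, adjusted p = 0.444). Both probes of the gene thus stood apart on this array, though neither passed.

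Os05g0571200 did not pass in limma, though its bound given above was 6-fold over the mean of the other arrays. It entered the test only through the array on which it was high. With the slide as a block, which leaves 1 residual degree of freedom, it was called among 1930 of all 37685 probes, under the same limit. Os05g0474800, missed on replicate 1, differed by 2.63 ± 0.94 (SE, adjusted p = 0.549). Os01g0826400 gave 5.94 on the Lon-gin-labelled array, against 4.71, 4.14 and 4.70 on replicates 3, 1 and 2, and its 3 probes differed by 1.57, 1.69 and 1.03. Os11g0490900 gave 6.06, against 5.09, 4.96 and 5.06, so that the 3 Don-gin arrays lay close together (difference 1.02 ± 0.41, SE, adjusted p = 0.608). In each of these genes the Lon-gin-labelled array was the highest of the 4.

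The median difference over the 61 member probes was 0.60, against 0.15 over all probes tested, and 47 were above 0. With quantile normalization the medians were 0.02 for members and -0.07 for all, with 32 of the 61 above 0. With normexp they were 0.03 and -0.02, and with the authors' values 0.26 and 0.28. This comparison holds part of the slide difference, because the Lon-gin-labelled array is 1 of the 2 arrays of slide 2. Within slide 2, the Lon-gin-labelled array minus replicate 3 had a median of 0.02 over the member probes and 0.04 over all, and 31 of the 61 were above 0 (50.8%, against 53.1% of all probes). Some members were far apart within that slide in either direction. Os01g0734000 was 2.24 higher and Os05g0474800 2.29 higher on the Lon-gin-labelled array than on replicate 3, while Os05g0322900 gave -1.44 and Os09g0334500 gave -1.38 for the same difference. Slide 1 holds no array with that label, so it gives no second value.

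For 12 of the members with several probes, the means of the probes differed by more than 1 on the log2 scale, so the gene's level depends on the probe read. Both probes of Os02g0181300 and of Os05g0343400 kept the same order of the 4 arrays, although their means lay 3.51 and 3.02 apart. For Os01g0750100, all 3 probes were lowest on replicate 1, and the gene gave 9.06 and 8.79 on slide 2, against 7.66 and 9.15 on slide 1. The probes of Os01g0665500 ordered the slides differently. Its probe 1, at the 5′ end, gave 2.78 and 2.83 on slide 2, against 3.51 and 4.37 on slide 1 (difference -1.13 ± 0.38, SE). It was not well above background on replicate 1, and the shift of never-detected probes had the same sign and a similar size, so no direction is read from it. Its probe 2, at the 3′ end of the coding sequence, gave 7.46 and 6.40 on slide 2, against 4.58 and 6.03 on slide 1 (difference 1.63 ± 0.64, SE), and probe 3 of the same end gave 1.54 ± 0.59. None of the 3 passed the threshold, with adjusted p between 0.203 and 0.257.

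**Figure D5:**
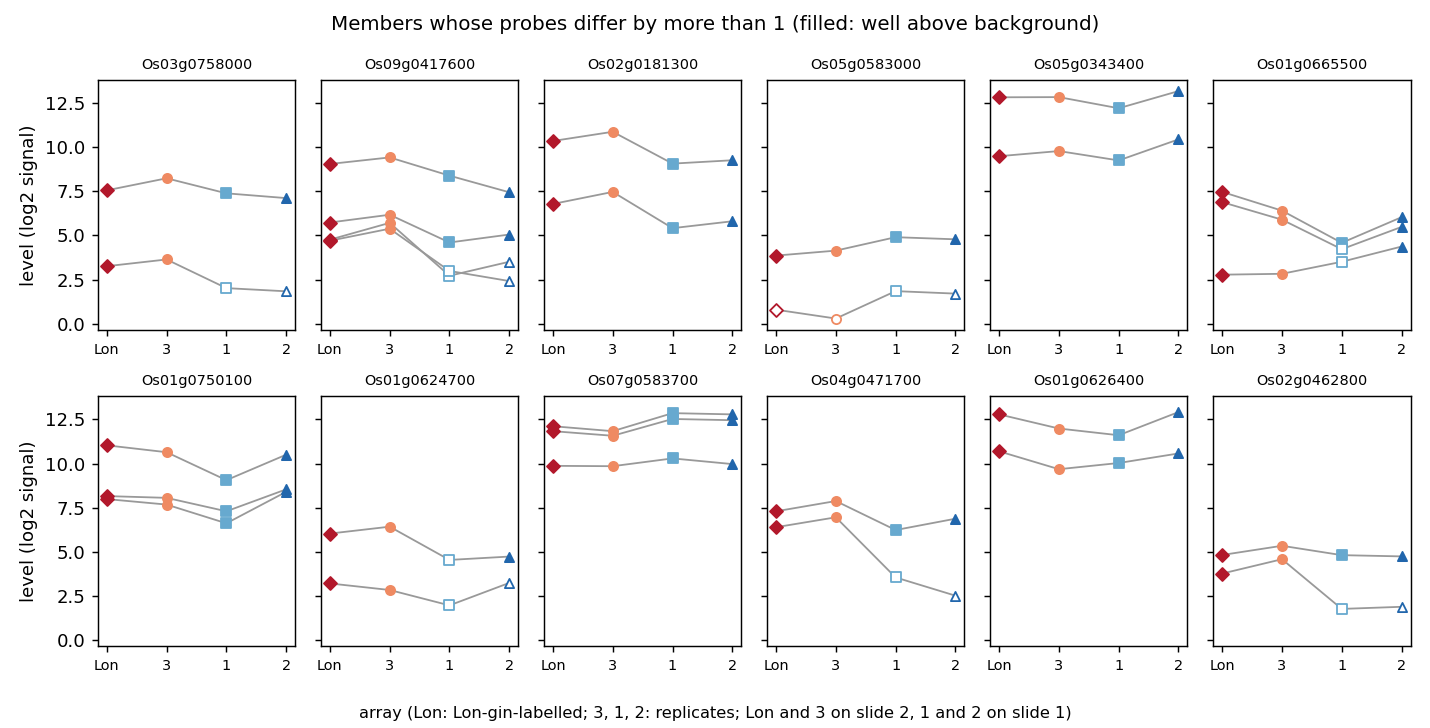
Level (log2 signal, vertical axis) of each probe of the 12 members whose probe means differ by more than 1, 1 panel per gene, over the 4 arrays (horizontal axis, slide 2 left of slide 1); a line joins the values of 1 probe, and open symbols are not well above background. Lines run parallel for Os02g0181300 and Os05g0343400, while in Os01g0665500 the lowest line, open on replicate 1, is higher there than on slide 2 while the other 2 are lower there, and in Os02g0462800 1 of 2 probes loses detection on slide 1.

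In Os02g0462800 and Os09g0417600 detection itself depended on the probe. Probe 2 of Os02g0462800 was well above background on all arrays, with 4.83 and 5.35 on slide 2, against 4.82 and 4.75 on slide 1 (difference 0.31 ± 0.30, SE), while probe 1 was detected on slide 2 only. For Os09g0417600, probes 1 and 3 were detected on all arrays and probes 2 and 4 on slide 2 only, and all 4 were higher on slide 2, by 1.12 to 2.34. Counting a gene only where every probe was well above background left 15 members on all 4 arrays in place of 23.

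Several members lie close together in the order of rice gene identifiers, which run along each chromosome. Os01g0624700 and Os01g0626400 on chromosome 1 have 6 other genes of the array between them. Os01g0626400 was detected on all arrays with both probes, while Os01g0624700 was missed on replicate 1 and gave 4.63 and 4.64 on slide 2, against 3.27 and 3.99 on slide 1. Os01g0186000 lies next to Os01g0185900, with no gene of the array between them. Os01g0185900 is described as WRKY transcription factor 1 in the study's annotation and is outside the 40. It was well above background on every array, with 13.62 and 13.39 on slide 2, against 12.39 and 13.58 on slide 1, while its neighbour was missed on replicate 1. For both genes replicate 1 was the lowest array.

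The study's list of root hair-preferential genes holds 5 genes described as WRKY, of which Os01g0730700 is the only member of the 40. Because the study chose that list on these samples, a high level in it is not independent evidence. The other 4 were well above background on all arrays. Os03g0321700, described by the study as WRKY transcription factor 55, gave 13.94 and 13.59 on slide 2, against 14.37 and 14.11 on slide 1 (14.00 ± 0.33, SD, n = 4). Os04g0597300 gave 13.50 and 13.53 on slide 2, against 13.16 and 13.82 on slide 1 (13.51 ± 0.27, SD, n = 4), and its slides overlapped. Os03g0758900, described by the study as WRKY transcription factor 34, varied most, with 12.68 and 13.49 on slide 2, against 11.39 and 11.98 on slide 1. Both of its probes were higher on slide 2, by 1.38 ± 0.41 and 1.43 ± 0.42 (SE, adjusted p = 0.172 and 0.169 in limma). None of these 4 genes was called in either comparison.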

How the data were processed

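Root hair RNA of 4 samples was measured on Agilent rice arrays. The authors deposited the spot intensity values of the scanner, made with Agilent Feature Extraction 11.5.1.1 per the file headers, while the submitters' processing notes name another version. The authors also deposited log2 values, with medians of 8.51 on the Lon-gin-labelled array and 8.50 on replicate 3, against 7.70 and 7.71 on replicates 1 and 2. These rank the probes as the median spot signal does. The study refers to earlier work for their normalization, which was not at hand, so their centring is unknown here, and they were used as an alternative only. The table had 0 unused columns of per-sample values.

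After removal of control spots there were 43734 spots of 42477 probes. An outlier spot was dropped where its probe had another (126 values), and no probe was saturated. For each probe the log2 processed signals were averaged, and every array was then shifted to a common 75th percentile. Limma 3.58.1 (R 4.3.3) compared the lone Lon-gin-labelled array with replicates 1, 2 and 3, and slide 2 with slide 1, with p-values adjusted by the Benjamini-Hochberg method over all probes tested. Each of these main fits had 2 residual degrees of freedom, and a single array in an arm takes its variance from the others. The fit with the slide as a block had 1, and fits with 1 array left out also had fewer than the main fits. The fits were tested on simulated data. Python 3.11.15, numpy 2.4.6, pandas 2.3.3 and matplotlib 3.10.9 made the tables.

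Members named with values were those more than 2-fold apart, the steadiest 5, those called, those detected on fewer than 4 arrays, those whose probes differ by more than 1, the member of the study's list, and some fixed by identifier. The members and lists were chosen with earlier results of these data known. The RefSeq gene table held none of the 40 identifiers, and 0 of 954 RefSeq transcript names on the array matched it. Marker genes, WRKY partner genes, promoters and proteins were therefore not analysed here, and a planned search for the W-box was not run. Normexp was applied to the median signal (offset 50). Further alternatives were quantile normalization, unscaled values, changed filters and probe rules, a block for the slide, and the omission of single arrays. The study describes biological replicates of 1 condition. The p-values set a difference by slide or label against the spread of the arrays within each arm.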

Additional observations from a re-analysis of the deposited data

Results flagged for a closer look

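Os11g0490900 was set apart by its Lon-gin-labelled array, which gave 6.06, against 4.96 to 5.09 on replicates 1 to 3. The gap to the nearest array made up 0.880 of the whole range, above Dixon's critical value for 4 samples. It was well above background on all 4 arrays. Of the 37 members, 1 stood out in this way (2.7%, against 5.13% of all genes), and chance alone flags about 1 in 20 groups.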

How the results depend on the processing

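No paired analysis was possible because the series holds 1 group. Members detected on all arrays numbered 15 if every probe had to pass, and 23 to 27 with 1 array left out. Members called on the Lon-gin-labelled array numbered 0 to 9 with 1 array left out (9 without replicate 3, when 4621 of all 37696 probes were called) and 1 with the slide as a block (1930 of 37685). Their median difference was 1.47 without scaling, 0.02 with quantile normalization, 0.03 with normexp, 0.26 with the authors' values, 0.02 with the slide as a block, and 0.33 to 0.90 with 1 array left out. Without replicate 3 the comparison by label and that between slides are the same fit, because slide 2 then holds only the Lon-gin-labelled array. Members called between slides numbered 0 with quantile normalization, 13 without scaling, 0 with normexp, 3 with the authors' values, 6 without a filter on dim probes, and 0 to 9 with 1 array left out. The median slide difference was 1.97 without scaling, 0.18 with normexp, and 0.64 to 1.30 with 1 array left out. The median SD was 1.20 without scaling, 0.31 with normexp, and 0.63 to 0.81 with 1 array left out. Members more than 4-fold apart numbered 17 without scaling, 0 with normexp, 11 without a filter, and 3 to 6 with 1 array left out. With the main scaling 12% of all genes were that far apart, and their share and median SD under the other settings are not given here. Without scaling, 74% of all genes were more than 2-fold apart, against 21 of 23 members, so these counts are not read as a trait of the members. A member was counted as called if any of its probes was, while the called counts over all are of probes. The cause of these changes was not tested. The counts of array order under other scalings were added after the data had been seen. Levels of all 37 members moved by less than 1 SD with quantile normalization. In contrast, 27 moved further with normexp, 23 with the authors' values and 13 when the brightest probe was read. Without scaling, a gene's mean over the 4 arrays stays the same by construction, so that setting gives no check of the levels. Over all probes, 0 were called on the Lon-gin-labelled array without scaling and 63 with quantile normalization. Between slides 9563 were called without scaling, 178 with quantile normalization, 154 with normexp, 3140 with the authors' values and 3132 without a filter. The W-box count was not run. Low signal over background limits the members detected on slide 2 only.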
